A study of Homo sapiens with 6 samples.

Results

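The expression of 41 interferon-stimulated genes was examined in cells that the study describes as HCT-116, an established human colon carcinoma line. By its description they carried the viral vector PMSCV either with GOLPH3, a Golgi phosphoprotein, or empty. The members were taken by symbol from a list that was drawn up with earlier results of these data known, and all 41 were found among the 60546 gene identifiers measured. RNA sequencing covered 3 libraries titled GOLPH3 and 3 titled Vector. According to the methods of the study each group is a stable line made by lentiviral infection and was sampled at different generations, so p-values measure the spread between libraries of the same line, which may be technical. The number after P in the titles, whose meaning the labels do not give, is 8, 12 and 13 in the GOLPH3 group and 12, 11 and 13 in the Vector group. All cells were wild type by genotype, grown in medium with serum and lysed in Trizol, and the labels give no interferon treatment or infection with a replicating virus.

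The deposited values were read counts divided by a factor for each library, called normalized reads here, and were not corrected for gene length. Library totals ran from 15708846 to 21900764 reads, of which 4.41% to 9.97% were mitochondrial. Counting 3 reads as the limit of detection, a gene without reads could still reach 2.47 to 3.29 normalized reads, which covers counting error only. The GOLPH3 transcript had 1629.5, 1272 and 1383 normalized reads in the GOLPH3-labelled libraries against 1968, 1892 and 1472 in the Vector-labelled ones (log2 fold change -0.31, standard error 0.27, adjusted p = 0.609, limma; exact two-sided permutation p = 0.2, where 3 against 3 cannot go below 0.1), so it was not detectably higher and groups are named by their labels. The 12 epithelial markers summed to 81596 to 154983 normalized reads in the GOLPH3-labelled libraries and 38072 to 45404 in the Vector-labelled ones, although of the intestinal markers among them VIL1 and LGALS4 stayed at or under 5.37 in every library. Another of them, CDX2, had 247, 261 and 358 normalized reads in the GOLPH3-labelled libraries and 415, 184 and 897 in the Vector-labelled ones. A list of 10 genes known from HEK293 cells summed to 165 to 180.3 against 4299 to 13219, with IRS4, UCHL1, NEFM, HAND1 and HOXD13 at 0 in every GOLPH3-labelled library. That list was chosen on these samples, so its separation of the groups is no independent result. The 12 mesenchymal markers, which share CDH2 with it, summed to 1608 to 2035 against 4046 to 7154. Among them DCN was at 0 in all 6 libraries and ZEB2 at 0 in the GOLPH3-labelled ones. Of the genes tested, 9 of 10 in the HEK293 list and 8 of 10 mesenchymal markers had negative log2 fold changes. Of the 12 epithelial markers 11 were positive, and 1 mesenchymal marker was higher at an unadjusted p under 0.05 (limma). These marker sums moved with the groups, and so with each group difference below, and their part in those differences was not tested. The 10 leukocyte markers summed to at most 54.4 normalized reads in any library, with CD3E and CD3D at 0 throughout and PTPRC at 0 in 5 of 6, and the 7 endothelial markers to at most 48.3.

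Interferons are secreted cytokines that cells release on sensing foreign or misplaced nucleic acids. Type I and type III interferons bind separate receptors that act through the kinases JAK1 and TYK2 and lead to ISGF3, a transcription factor with STAT2 and IRF9 that binds the interferon-stimulated response element (ISRE) upstream of its target genes. The targets encode proteins that bind viral RNA, block entry or release of virus, attach the ubiquitin-like protein ISG15 to other proteins or tune the response itself, and several of them can also be switched on by IRF3 and IRF1 without ISGF3. Epithelial cells of the gut are known for answering type III interferon in particular.

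Promoters of 33 of the 41 members were found by symbol in the RefSeq table for GRCh38.p14, which gives 250 bases before and 50 after each start. The members without an entry were IFIT2, IFITM2, IRF7, MX2, OAS2, OASL, TRIM22 and USP18. The core of the ISRE, searched on both strands as GAAA followed by any 2 bases and a second GAAA, was present in at least 1 promoter of 23 of these 33 genes (69.7%) and of 1195 of all 27305 genes in the table (4.38%). The core of the gamma-activated sequence of interferon gamma targets, TTCNNNGAA, was present in 10 of 33 (30.3%) and 2560 of 27305 (9.38%), and can overlap the ISRE core. Stretches upstream of the start are shown for 4 members that were lower in the GOLPH3-labelled libraries and 3 that did not pass the test, to show that the same element stands in both kinds of promoter. Each runs 5′ to 3′ on the strand of the gene, capitals mark matches to the ISRE core, and matches that overlap run together.
IFIT1, chr10:89392487-89392549 (plus strand): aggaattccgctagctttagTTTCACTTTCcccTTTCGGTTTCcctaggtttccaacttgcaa
IFIT3, chr10:89327821-89327904 (plus strand): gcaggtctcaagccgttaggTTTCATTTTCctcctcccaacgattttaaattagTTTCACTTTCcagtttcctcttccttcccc
HERC5, chr4:88456974-88457074 (plus strand): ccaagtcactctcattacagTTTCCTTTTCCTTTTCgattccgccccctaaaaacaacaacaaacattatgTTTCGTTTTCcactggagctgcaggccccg
RSAD2, chr2:6877612-6877661 (plus strand): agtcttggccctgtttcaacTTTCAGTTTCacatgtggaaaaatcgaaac
IFIT5, chr10:89414503-89414567 (plus strand): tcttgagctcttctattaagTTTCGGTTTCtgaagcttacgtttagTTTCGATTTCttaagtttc
ISG15, chr1:1013364-1013419 (plus strand): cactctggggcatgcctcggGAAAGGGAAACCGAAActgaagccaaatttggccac
ISG20, chr15:88638927-88638976 (plus strand): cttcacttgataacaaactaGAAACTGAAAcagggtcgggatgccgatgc
The first match began 116 bases before the start of IFIT1, 156 before IFIT3 and 125 before HERC5, and in those that did not pass 45 bases before IFIT5, 113 before ISG15 and 69 before ISG20. IFIT3 and RSAD2 each have an entry for 2 starts. The stretch of IFIT3 belongs to the first of its starts, and before the second the first match began at 94 bases. The stretch of RSAD2 belongs to the second of its starts, 145 bases before it. Of the members with the element, 5 of 23 were called lower in the GOLPH3-labelled libraries and their median log2 fold change was -0.34, beside 3 of 10 and -0.49 for members with a promoter entry and no match. Over all genes with a promoter entry that were tested, 7.07% of those with the element and 5.41% of those without it were called lower, the opposite order to the members' counts, and neither contrast was tested.

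Expression of the 41 genes was then compared between the groups on the scale of log2(normalized reads + 1), where the change of low genes is understated, using limma with Benjamini-Hochberg adjustment over 26536 genes. All 41 passed the filter, which asked for 1 normalized read or more in any 3 libraries. In the GOLPH3-labelled libraries 9 members were lower and 1 was higher at an adjusted p under 0.05, where 5.07% of all genes tested were called, 4.12% lower and 0.953% higher. The 9 were IFI16, IFIT1, IFIT2, IFIT3, HERC5, IFI44, SAMD9L, CMPK2 and RSAD2, with log2 fold changes from -5.59 to -1.81, and the gene that rose was IFITM2. At an unadjusted p under 0.05 there were 20 members, 17 lower and 3 higher, against 17.6% of all genes, 10.1% lower and 7.51% higher. The median log2 fold change was -0.48 over the 41 members and 0.02 over all genes tested. In 15 members every GOLPH3-labelled library lay below every Vector-labelled one, and in 3 every one lay above (background 12.8% and 9.2%). The 31 members that were not called had a median of -0.29 and ranged from -2.53 to 1.78, with 21 negative and 10 positive. As these are bulk samples, a smaller share of cells expressing a gene cannot be told apart from less RNA of it per cell.

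The number of calls leaned on single libraries. Without Vector replicate 1 there were 5 called members, IFI16, IFIT1, IFIT3, HERC5 and IFI44, where 1.85% of all genes were called, and these 5 were also called in each of the other 14 alternative fits. Leaving out GOLPH3 replicate 3 moved the median of the members to -0.95. The libraries differed within groups as well. Taking each member relative to its mean over the 6 libraries, the median member stood at -0.52, -0.28 and -0.07 on the log2 scale in GOLPH3 replicates 1, 2 and 3 and at 0.64, 0.51 and 0.12 in Vector replicates 1, 2 and 3, so among pairs of libraries across the groups GOLPH3 replicate 3 and Vector replicate 3 lay closest. The heat map of the 41 genes by library shows the block of lower values at its top.

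**Figure D1:**
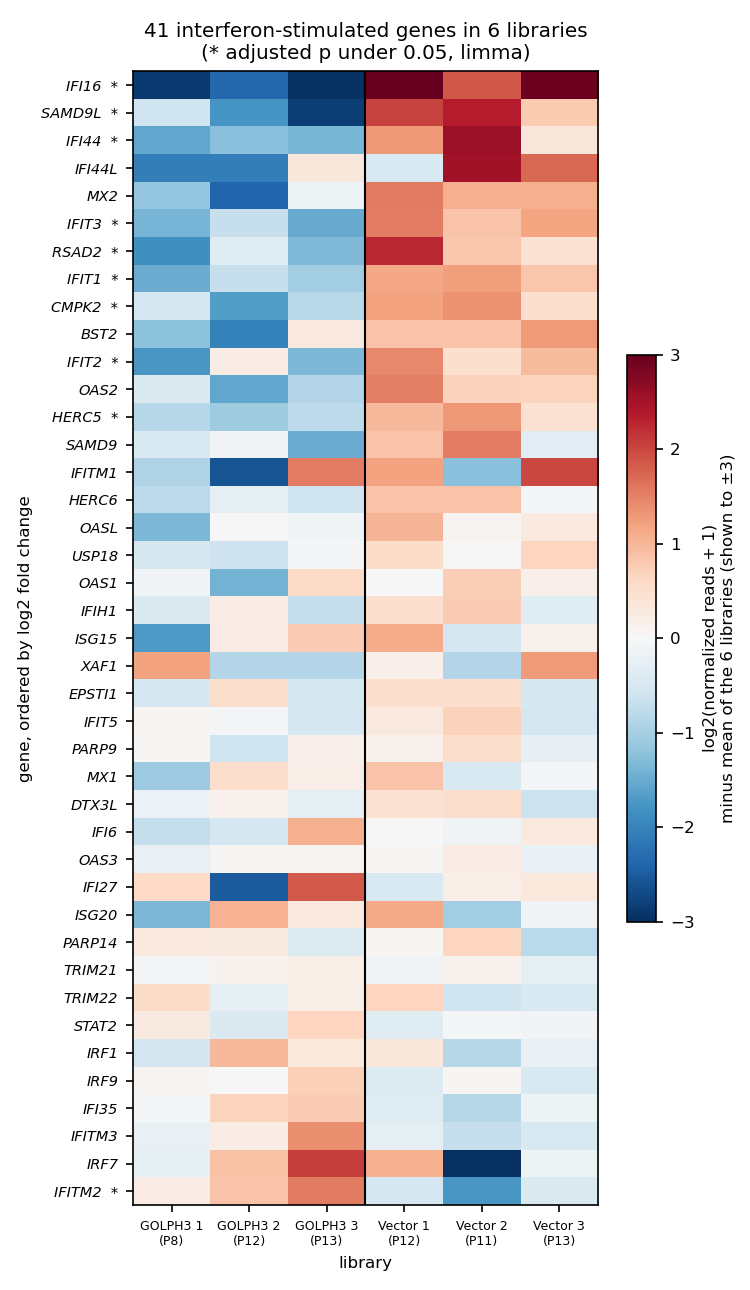
Each row is 1 of the 41 genes and each column a library, and the color gives log2(normalized reads + 1) minus the gene's mean over the 6 libraries, with values past 3 in either direction drawn at the end of the scale. Genes are ordered by log2 fold change from IFI16 (-5.59) to IFITM2 (1.78), and stars mark the 10 genes with an adjusted p under 0.05.

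**Figure D2:**
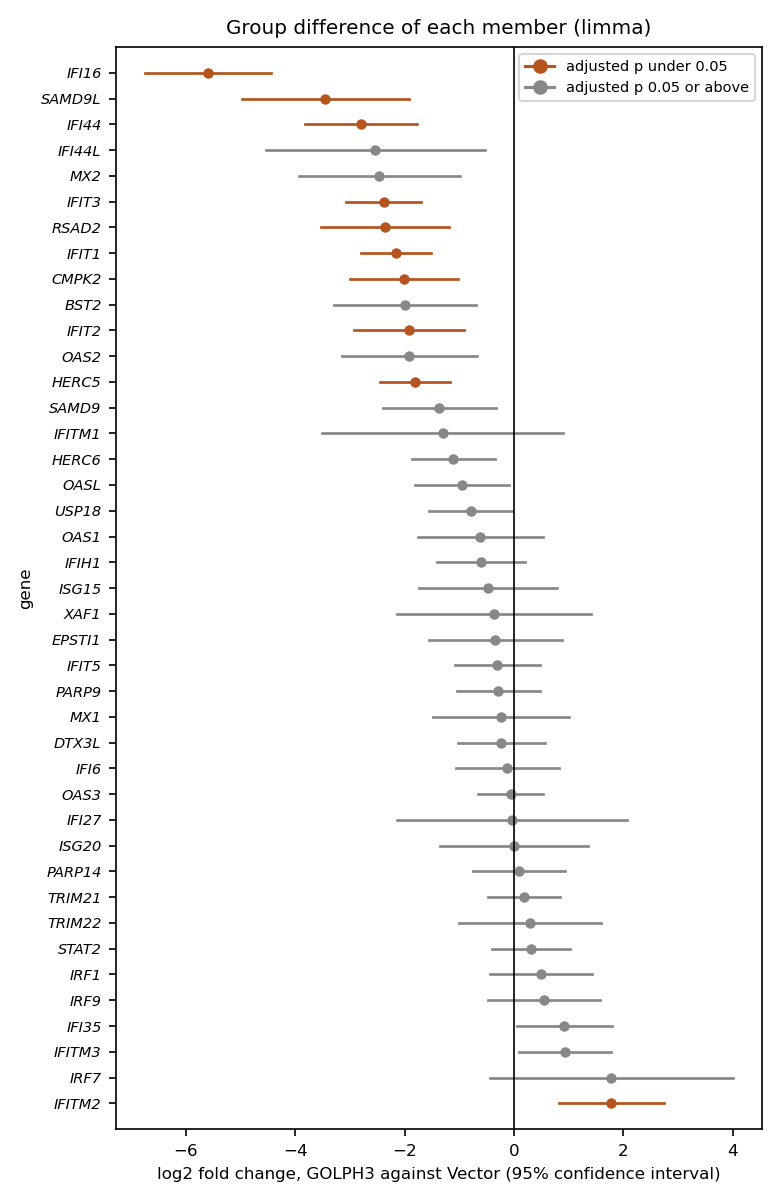
Points are log2 fold changes of the GOLPH3-labelled against the Vector-labelled libraries from limma (n = 3 and 3), bars are 95% confidence intervals, and called genes are in color. IFI16 lies farthest from 0, with an interval from -6.74 to -4.44, and 21 of the 41 intervals include 0.

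Among the IFIT genes, which encode tetratricopeptide proteins that bind viral RNA and hold back its translation, 3 of 4 were lower in the GOLPH3-labelled libraries. They lie in a cluster on chromosome 10, IFIT2 at 89283694 to 89309276, IFIT3 at 89327894 to 89340971, IFIT1 at 89392546 to 89406486 and IFIT5 at 89414586 to 89421001 (GRCh38, GENCODE 29, plus strand). IFIT1 (ENSG00000185745) had 997, 1736 and 1363 normalized reads in the GOLPH3-labelled libraries and 6257, 6726 and 5006 in the Vector-labelled ones. With means of 1365 ± 369 and 5996 ± 889 (SD, n = 3 each) the gene was 4.39-fold lower by the ratio of means, and the groups stood well apart (log2 fold change -2.16, standard error 0.30, adjusted p = 0.000653, limma). IFIT3 had 494, 799.9 and 455 against 3752, 2337 and 2931 normalized reads (log2 fold change -2.38, standard error 0.32, adjusted p = 0.000531, limma). IFIT2 fell less evenly, with 646, 2560.4 and 855 against 5948, 3048 and 4223 normalized reads (log2 fold change -1.92, standard error 0.46, adjusted p = 0.0325, limma). Its GOLPH3 replicate 2 came close to Vector replicate 2, and the limma adjusted p rose to 0.0724, 0.127, 0.144 and 0.101 without GOLPH3 replicate 1, GOLPH3 replicate 3, Vector replicate 1 and Vector replicate 3. With the replicate block it was 0.0846, in a range of 1.14e-11 to 0.144 over all alternatives.

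IFIT5, the neighbor of IFIT1 at a gap of 8099 bases and with ISRE matches of its own in the stretch shown above, had 535, 501 and 359.7 normalized reads in the GOLPH3-labelled libraries and 627, 817 and 354 in the Vector-labelled libraries. These groups overlapped, and the difference did not pass the test (log2 fold change -0.30, standard error 0.36, adjusted p = 0.72, limma; 95% confidence interval -1.09 to 0.48). The LIPA gene, which encodes lysosomal acid lipase, overlaps IFIT1, IFIT2 and IFIT3 on the opposite strand. LIPA itself had 1239.8, 636 and 1108 against 1163, 1514 and 1219 normalized reads (log2 fold change -0.43, standard error 0.32, adjusted p = 0.533, limma). Whether the counting used strand is not stated, and the part of shared reads in the IFIT values was not tested.

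**Figure D3:**
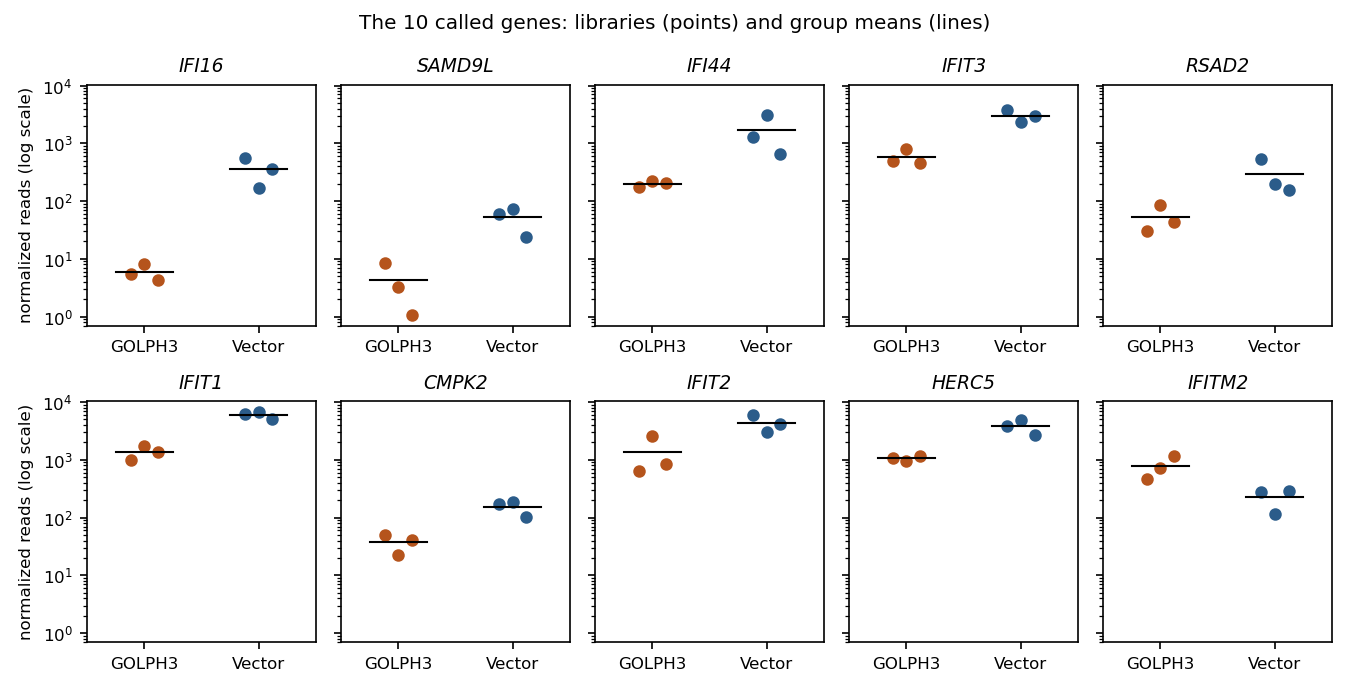
Normalized reads on a log scale for the 10 called genes, with 1 point for each library (n = 3 a group) and a line at the group mean. In 9 panels every GOLPH3-labelled library lies below every Vector-labelled one, and in the panel of IFITM2 the order is the opposite.

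IFI16, a nuclear DNA sensor of the PYHIN family (ENSG00000163565, chromosome 1, 158999968 to 159055155), showed the largest difference of the 41. It had 5.37, 8.25 and 4.27 normalized reads in the GOLPH3-labelled libraries, close to the limit of detection, and 559.9, 169.8 and 359 in the Vector-labelled ones. The means were 5.96 ± 2.05 and 363 ± 195 (SD, n = 3 each), a ratio of 60.9 (log2 fold change -5.59, standard error 0.53, adjusted p = 3.66e-05, limma). AIM2, the cytosolic DNA sensor of the same family, lies next to IFI16 (chromosome 1, 159062484 to 159147096) and belongs to a second list of interferon-responsive genes. It had no read in any GOLPH3-labelled library and 71, 27.4 and 30.9 normalized reads in the Vector-labelled ones, at least 14.5-fold lower when the former are set at the mean limit of 3 reads per library. Of all 60546 gene identifiers, 174 had at most 3 reads in every GOLPH3-labelled library and at least 50 normalized reads in every Vector-labelled one. Among these 0 were members, but at so small a share this says nothing about the 41. Within the Vector-labelled libraries IFI16 was lowest in replicate 2, as were IFIT2, IFIT3 and the summed HEK293 and mesenchymal marker lists. Of the other members called lower, RSAD2 was lowest in replicate 3. IFIT1, HERC5, IFI44, SAMD9L and CMPK2 were instead highest in replicate 2, and no relation to the marker lists was tested.

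Of the 4 genes of the ISG15 system, 1 was lower in the GOLPH3-labelled libraries. ISG15 is a ubiquitin-like protein that is attached to targets by HERC5 and removed by USP18. The ISG15 transcript was the most abundant of the 41 by length, with 2463 to 17442 normalized reads per kb of exon over the 6 libraries. It had 2318, 9006 and 12865 normalized reads in the GOLPH3-labelled libraries against 16413, 5334 and 8301 in the Vector-labelled ones. The lowest library and the highest stood 7.08-fold apart and the groups overlapped, so no group difference was detectable (log2 fold change -0.48, standard error 0.58, adjusted p = 0.725, limma), and without GOLPH3 replicate 1 the log2 fold change turned to 0.26. The ligase HERC5 did differ, with 1088, 955 and 1146 against 3866, 4897 and 2710.2 normalized reads. Its means were 1063 ± 98.2 and 3824 ± 1094 (SD, n = 3 each), and the 3 GOLPH3-labelled values lay within a narrow band below all others (log2 fold change -1.81, standard error 0.29, adjusted p = 0.00249, limma). HERC6, its neighbor on chromosome 4 and a relative with a HECT domain, had 210.4, 303 and 239 against 664, 664 and 348 normalized reads, also without overlap, but missed the threshold (log2 fold change -1.11, standard error 0.35, adjusted p = 0.103, limma; 0.00318 to 0.391 over the alternatives). USP18, which also restrains signaling at the type I receptor, had 139.5, 126 and 187 against 285, 195 and 308 (log2 fold change -0.79, standard error 0.35, adjusted p = 0.264, limma).

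Of 7 effectors that act on nucleotides, trap viral particles or slow translation, RSAD2, CMPK2 and SAMD9L were lower and none was higher. RSAD2 encodes viperin, which makes a chain-terminating nucleotide, and the adjacent CMPK2 encodes a mitochondrial nucleotide kinase. Both models overlap by 830 bases on opposite strands of chromosome 2. RSAD2 had 30.1, 85.8 and 43.8 normalized reads in the GOLPH3-labelled libraries and 533, 196 and 153 in the Vector-labelled ones (log2 fold change -2.36, standard error 0.53, adjusted p = 0.0232, limma). CMPK2 had 50.5, 22.3 and 40.6 against 169, 186 and 102 (log2 fold change -2.01, standard error 0.45, adjusted p = 0.0225, limma). Neither pair of groups overlapped, yet both calls depended on single libraries. The limma adjusted p of RSAD2 was 0.0513, 0.0769 and 0.151 without GOLPH3 replicate 1, GOLPH3 replicate 3 and Vector replicate 1, and 0.064 with the replicate block (range 2.77e-08 to 0.151). That of CMPK2 was 0.0745, 0.0553, 0.137 and 0.0699 without GOLPH3 replicate 2, GOLPH3 replicate 3, Vector replicate 1 and Vector replicate 2, and 0.0562 with the block (range 5.68e-06 to 0.137).

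SAMD9 and SAMD9L are neighbors on chromosome 7 whose products restrict poxviruses and slow translation. SAMD9L had 8.59, 3.30 and 1.07 normalized reads in the GOLPH3-labelled libraries, at or near the limit of detection, against 58.7, 73.4 and 24 (log2 fold change -3.45, standard error 0.70, adjusted p = 0.0117, limma; 0.0677 without Vector replicate 1, in a range of 3.51e-06 to 0.0677). SAMD9 was far more abundant, with 896, 1164 and 439 against 2250.0, 3569 and 974 normalized reads, and the highest GOLPH3-labelled library exceeded the lowest Vector-labelled one (log2 fold change -1.36, standard error 0.48, adjusted p = 0.144, limma). With the replicate block its limma adjusted p was 0.025, and without Vector replicate 3 it was 0.0458 (range 8.83e-06 to 0.472). MX1 and MX2 encode dynamin-like GTPases that trap viral capsids. MX2 had 3.22, 0.825 and 7.47 against 26.8, 18.6 and 18.9 normalized reads without overlap (log2 fold change -2.46, standard error 0.68, adjusted p = 0.0615, limma; 0.0407 without GOLPH3 replicate 3, in a range of 0.00587 to 0.234). MX1, next to it on chromosome 21, had 16.1, 51.1 and 40.6 against 64.8, 25.2 and 34.3, which overlapped throughout (log2 fold change -0.24, limma adjusted p = 0.87). ISG20, an exonuclease that degrades RNA, had 106, 559 and 329.9 against 591, 131 and 252 normalized reads and no net difference (standard error 0.62, limma adjusted p = 1).

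Besides IFI16, 1 of the other 7 members of a mixed group of IFI genes and similar proteins was called, and it was lower. IFI44 and IFI44L encode related cytoplasmic proteins and lie 3650 bases apart on chromosome 1. IFI44 was 8.46-fold lower by the ratio of means, with 176, 219 and 202 normalized reads in the GOLPH3-labelled libraries and 1292, 3095 and 663 in the Vector-labelled ones (log2 fold change -2.80, standard error 0.47, adjusted p = 0.00292, limma). The 3 low values lay close together, whereas the Vector-labelled values were spread widely. IFI44L was rare throughout, with 0, 0 and 4.27 against 2.06, 23 and 12.9 (log2 fold change -2.53, standard error 0.92, adjusted p = 0.161, limma). IFI6, which encodes a small membrane protein, was among the 5 most abundant members by length at 441 to 1523 normalized reads per kb. It had 381, 434 and 1317 against 629, 582 and 764 normalized reads, where GOLPH3 replicate 3 was the highest of all and the other 2 of its group the lowest (log2 fold change -0.12, limma adjusted p = 0.919). IFI35, whose product forms a complex with NMI, lay in the opposite direction, with 105, 172 and 184 against 83.4, 59.2 and 97 normalized reads and no overlap, but did not pass (log2 fold change 0.92, standard error 0.40, adjusted p = 0.251, limma). IFI27, XAF1 and EPSTI1 had at most 32.2 normalized reads in any library, and none of the 3 was called.

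Of the 4 genes for membrane proteins that block viral entry or release, 1 was higher and none was lower in the GOLPH3-labelled libraries. IFITM1, IFITM2 and IFITM3 encode small proteins that stiffen membranes against fusion. They are genes of similar sequence in a row on chromosome 11. The models of IFITM1 and IFITM2 overlap by 1767 bases on the same strand, so how reads were divided among these genes is uncertain. IFITM2 had 466, 712 and 1166 normalized reads in the GOLPH3-labelled libraries and 278, 116 and 293 in the Vector-labelled ones, 3.41-fold higher by the ratio of means (log2 fold change 1.78, standard error 0.44, adjusted p = 0.0357, limma). This call was lost without any one of 5 libraries, with limma adjusted p = 0.0703, 0.17, 0.0675, 0.0873 and 0.0576 without GOLPH3 replicates 2 and 3 and Vector replicates 1, 2 and 3 (range 2.89e-09 to 0.17). IFITM3, the second most abundant member by length at 1309 to 5559 normalized reads per kb, had 2444, 3323 and 7494 against 2376, 1765 and 2086. The groups did not overlap but lay close, and the gene did not pass (log2 fold change 0.93, standard error 0.38, adjusted p = 0.225, limma). IFITM1 had 12.9, 3.30 and 73.7 against 58.7, 9.86 and 103, a spread within groups that covered any difference between them (log2 fold change -1.31, standard error 1.01, adjusted p = 0.559, limma). BST2, which encodes tetherin and holds budding virus at the cell surface, had 15, 8.25 and 44.8 against 66.9, 66.8 and 91 normalized reads without overlap (log2 fold change -1.99, standard error 0.59, adjusted p = 0.0843, limma; 0.021 without GOLPH3 replicate 3, in a range of 0.0011 to 0.23).

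None of the 5 members that sense double-stranded RNA or assist in it passed the test in the main limma fit. At an unadjusted p under 0.05 there were 2, OAS2 and OASL, and DESeq2 called 1, OAS2, and edgeR none. OAS enzymes make an oligoadenylate messenger that activates RNase L, and their 3 genes stand in a row on chromosome 12, all overlapped on the opposite strand by AC004551.1, which is listed at 0 in every library. OAS3, the longest of them, had 1431, 1718 and 1769 normalized reads in the GOLPH3-labelled libraries and 1707, 1989 and 1449 in the Vector-labelled ones, all 6 within a factor of 1.39 (log2 fold change -0.06, limma adjusted p = 0.937; 95% confidence interval -0.65 to 0.53). Its neighbor OAS2 was rare, at 11.8, 4.95 and 8.54 against 48.4, 27.4 and 26.6, and the groups did not overlap (log2 fold change -1.91, standard error 0.56, adjusted p = 0.0794, limma; 0.00298 to 0.341 over the alternatives). OAS1 had 75.1, 28.9 and 118 against 80.3, 133 and 88.4 (log2 fold change -0.61, standard error 0.52, adjusted p = 0.598, limma). OASL, which lacks the enzyme activity and enhances RIG-I, had 956, 2435 and 2314 against 4947, 2582 and 2993 normalized reads, where the groups were separate by a small gap (log2 fold change -0.94, standard error 0.39, adjusted p = 0.234, limma; 0.00407 to 0.584 over the alternatives). IFIH1, which encodes the sensor MDA5, had 536, 847 and 439 against 1022, 1235 and 564, with overlap (log2 fold change -0.61, standard error 0.37, adjusted p = 0.435, limma).

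None of the 4 transcription factors among the members passed the test in the main limma fit, edgeR or DESeq2, and all 4 fold changes were positive. None had an unadjusted p under 0.05. STAT2, the subunit of ISGF3 that carries its activation domain, had 1075, 653 and 1393 normalized reads in the GOLPH3-labelled libraries and 691, 872 and 841 in the Vector-labelled ones (log2 fold change 0.32, standard error 0.33, adjusted p = 0.677, limma; 95% confidence interval -0.40 to 1.03). IRF9, its DNA-binding partner, had 36.5, 34.6 and 56.6 against 25.7, 35.1 and 24.9 (log2 fold change 0.54, standard error 0.47, adjusted p = 0.604, limma). The model of IRF9 is overlapped over 5513 bases by another gene on the same strand, AL136295.5, with 23.6, 17.3 and 33.1 against 7.21, 9.86 and 21.5 normalized reads, and how shared reads were counted is not stated. IRF1, which can drive the same elements alone, had 305, 885 and 556 against 562, 248 and 381 (log2 fold change 0.50, standard error 0.43, adjusted p = 0.6, limma). Over the alternatives its adjusted p ran from 0.0324 to 0.924, and it was called only by limma with the P number as block. IRF7, the amplifier of the type I response, varied from 1.10 in Vector replicate 2 to 105 in GOLPH3 replicate 3 (log2 fold change 1.78, standard error 1.02, adjusted p = 0.408, limma), and its log2 fold change was 0.43 without Vector replicate 2.

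None of the 5 members for ubiquitin ligases and ADP-ribose enzymes was called by limma, edgeR or DESeq2, or had an unadjusted p under 0.05. PARP9 and DTX3L encode an ADP-ribosyltransferase and an E3 ligase that work as a pair, and their models overlap head to head by 340 bases on chromosome 3. PARP9 had 294, 190.5 and 319 normalized reads in the GOLPH3-labelled libraries against 317, 418 and 245, and DTX3L had 344, 426 and 320.2 against 533, 564 and 251. PARP14, a relative of PARP9 nearby, had 981, 963 and 606 against 817, 1257 and 458. TRIM21, which encodes a cytosolic antibody receptor with ligase activity, had 309, 346 and 368 against 294, 343 and 265, all within a factor of 1.39. Their log2 fold changes were -0.29, -0.23, 0.09 and 0.18 (limma adjusted p from 0.726 to 0.927). TRIM22 stayed between 7.67 and 19.6 normalized reads.

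Where members lie beside each other, their differences were alike in some places and not in others. CMPK2 and RSAD2, with log2 fold changes of -2.01 and -2.36, and IFI44L and IFI44, with -2.53 and -2.80, were similar pairs. HERC6 and HERC5 shared the sign, with -1.11 and -1.81. In the OAS row only OAS2 had an unadjusted p under 0.05, and on chromosome 21 MX2 had one and MX1 did not, although differences between neighbors were not tested.

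The P numbers allowed the groups to be set side by side at P12 and at P13, with 1 library of each group and no test. The median log2 difference of the members, GOLPH3-labelled minus Vector-labelled, was -0.95 at P12 and -0.04 at P13, and 13 of 41 members had opposite signs at P12 and P13, near the 28.9% of all genes tested that did. The 9 genes called lower were negative in both pairs. This was fixed in advance, since in all 9 every GOLPH3-labelled library lay below every Vector-labelled one. IFIT1 differed by -1.85 and -1.88, IFIT3 by -2.23 and -2.69, IFI16 by -5.92 and -6.09, and SAMD9L by -3.80 and -3.60. HERC5 differed by -2.02 and -1.24, and RSAD2 by -2.62 and -1.78. In a model that blocks on the P number, a fit with 1 residual degree of freedom whose spread is borrowed largely from other genes, 17 members were lower and 4 higher at an adjusted p under 0.05, where 22.9% of all genes were called.

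In some members the libraries of the same P number stood close. ISG20 had 559 and 591 normalized reads in the 2 libraries at P12, 329.9 and 252 at P13, and 106 and 131 at P8 and P11. IRF1 was likewise highest in both P12 libraries (885 and 562) and lowest at P8 and P11 (305 and 248). Both P12 libraries exceeded the other 4 in 3 members, ISG20, IRF1 and MX1, and were below them in 2, STAT2 and IFI27. Over all genes tested 6.74% and 6.1% did so, so 3 and 2 of 41 are near the background.

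**Figure D4:**
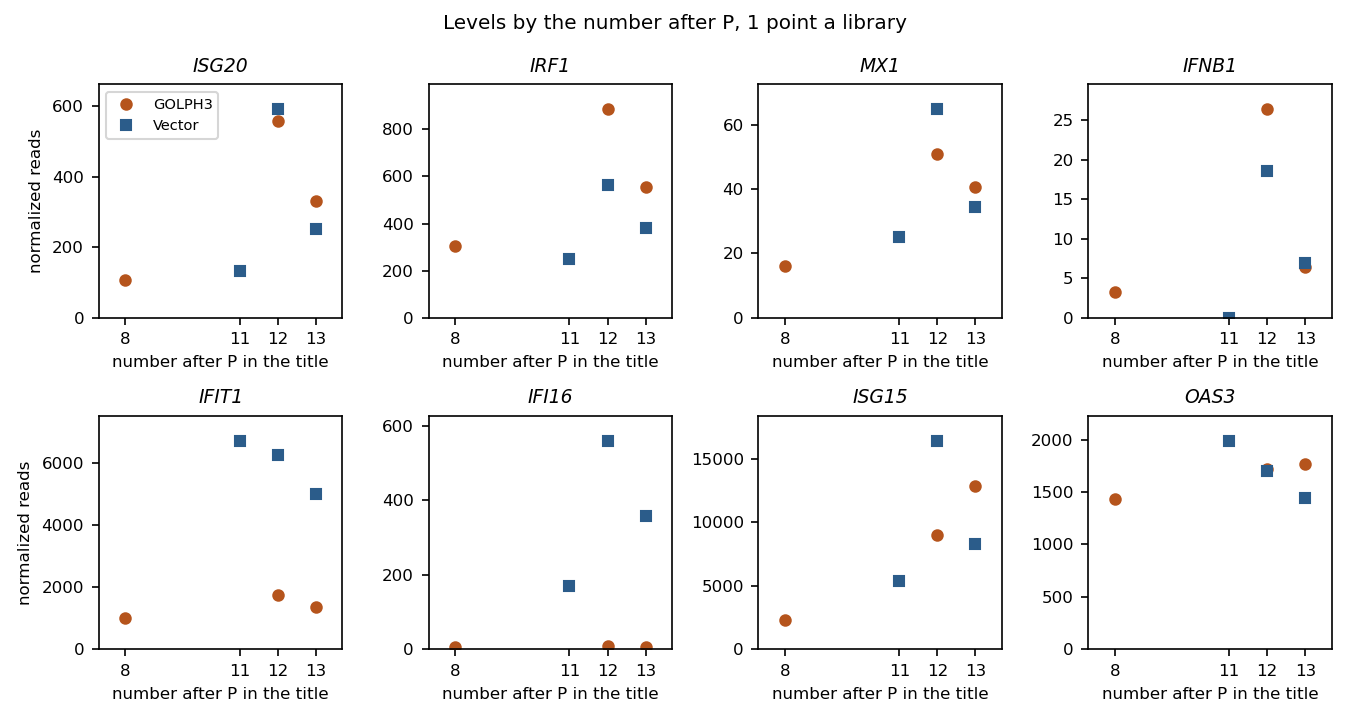
Normalized reads in each library against the number after P in its title, with circles for GOLPH3-labelled and squares for Vector-labelled libraries. ISG20, IRF1, MX1 and IFNB1 are highest in both libraries at P12, IFIT1 and IFI16 are lower in the GOLPH3-labelled library at both P12 and P13, and ISG15 and OAS3 show neither.

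Genes that make, receive and pass on the interferon signal were then counted from a list of 60 that holds no member. Of the 41 that passed the filter, 1 was higher and 1 was lower in the GOLPH3-labelled libraries at an adjusted p under 0.05 by limma, 4.88% against 5.07% of all genes tested, so the count is at the background. The median log2 fold change was 0.03. Among 22 ligands, 5 passed the filter and none was called by limma, with 2 at an unadjusted p under 0.05, IFNL2 and IFNL3, of which DESeq2 called IFNL3 and edgeR neither. IFNB1, the first type I interferon made by most cells, had 3.22, 26.4 and 6.40 normalized reads in the GOLPH3-labelled libraries and 18.5, 0 and 6.87 in the Vector-labelled ones, and both P12 libraries were the highest. The 13 IFNA genes had at most 1 read in any library, and IFNG had none. Type III ligands were present at higher counts. IFNL1 had 21.5, 207 and 178 against 101, 13.1 and 66.9 normalized reads (log2 fold change 1.03, limma adjusted p = 0.596). IFNL2 and IFNL3 are near-identical copies, so their split is uncertain. IFNL3 had 19.3, 136 and 165 against 21.6, 8.76 and 18.9 (log2 fold change 2.24, standard error 0.75, adjusted p = 0.125, limma), and IFNL2 25.8, 95.7 and 100.3 against 32.9, 0 and 20.6 (log2 fold change 2.83, standard error 1.11, adjusted p = 0.198, limma). GOLPH3 replicates 2 and 3 were the highest libraries for both genes, and GOLPH3 replicate 1 lay among the Vector-labelled ones.

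All 6 receptor chains passed the filter, and none was called by limma, edgeR or DESeq2 or had an unadjusted p under 0.05. IFNAR1 and IFNAR2, the chains of the type I receptor, had log2 fold changes of -0.37 and -0.55, and IFNLR1, the specific chain of the type III receptor, 0.51 (limma adjusted p = 0.609, 0.738 and 0.425). Of 12 genes for receptor signaling, limma and edgeR called none, with 2 at an unadjusted p under 0.05, and DESeq2 called 2, SOCS1 and PTPN6, a phosphatase. JAK1 and TYK2 had log2 fold changes of -0.22 and 0.25. SOCS1, a feedback inhibitor of these kinases, had 95.5, 115 and 153 against 55.6, 18.6 and 36 normalized reads, without overlap, and missed the threshold (log2 fold change 1.79, standard error 0.48, adjusted p = 0.0553, limma; 0.00136 to 0.223 over the alternatives).

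Among 20 genes for nucleic acid sensing, DDX58 was lower and IRF5 higher. DDX58, which encodes the RNA sensor RIG-I (chromosome 9, 32455705 to 32526324), had 1100.3, 1588 and 860.4 normalized reads in the GOLPH3-labelled libraries and 5895, 4394 and 2947 in the Vector-labelled ones. Its means of 1183 ± 371 and 4412 ± 1474 (SD, n = 3 each) lay apart without overlap (log2 fold change -1.89, standard error 0.34, adjusted p = 0.00495, limma), with an adjusted p of 0.0501 without Vector replicate 1 (limma; range 3.79e-13 to 0.0501). IRF5, a transcription factor downstream of endosomal sensors, had 381, 441 and 554 against 184, 135 and 160.5 (log2 fold change 1.51, standard error 0.32, adjusted p = 0.0155, limma). Its call was lost without GOLPH3 replicate 3, Vector replicate 1 or Vector replicate 3 (limma adjusted p = 0.0966, 0.0701 and 0.0623, range 3.86e-07 to 0.0966). MAVS, the adaptor of RIG-I and MDA5, had 5269, 4386 and 5581 against 2602, 3267 and 3206 normalized reads (log2 fold change 0.75, standard error 0.27, adjusted p = 0.155, limma). In the same list ZBP1 and TREX1 are listed at 0 in all 6 libraries.

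A second list of 60 interferon-responsive genes outside the members was counted in the same way. Of 56 tested, 4 were lower and none was higher at an adjusted p under 0.05 by limma, and the median log2 fold change was -0.14. That is 7.14%, against 5.07% of all genes (4.12% lower), so the count is near the background. At an unadjusted p under 0.05 there were 11 (19.6%), 7 lower and 4 higher, against 17.6% of all genes. Besides AIM2 the genes lower at an adjusted p under 0.05 were GBP1, GBP4 and ZC3HAV1. The guanylate-binding proteins GBP1 and GBP4 attack membranes of intracellular pathogens. GBP1 had 1.07, 2.47 and 2.13 normalized reads in the GOLPH3-labelled libraries, at most 3 reads each, against 17.5, 20.8 and 14.6, at least 5.95-fold lower when the former are set at the mean limit of 3 reads per library. GBP4 had 4.29, 2.47 and 5.34 against 28.8, 38.3 and 22.3 (log2 fold change -2.62, standard error 0.57, adjusted p = 0.0181, limma). ZC3HAV1, which encodes the antiviral protein ZAP that binds CpG-rich RNA, had 2362, 2612 and 2188 against 5236, 7709 and 3881 (log2 fold change -1.18, standard error 0.31, adjusted p = 0.0471, limma). These 3 calls leaned on single libraries. GBP1 was lost without each of 5 libraries (all but GOLPH3 replicate 2), GBP4 without GOLPH3 replicate 2 and each Vector replicate, and ZC3HAV1 without each of 5 (all but Vector replicate 3). The highest limma adjusted p was 0.107, 0.102 and 0.179 without Vector replicate 1, and with the replicate block it was 0.0613, 0.0662 and 0.0598. AIM2 was called in all 11 alternatives that tested it. With no read in any GOLPH3-labelled library, it passed the filter only through the Vector-labelled ones. It was therefore not tested without any one Vector-labelled library, and its dependence on single Vector-labelled libraries is unknown.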

How the data were processed

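RNA was sequenced from 3 GOLPH3-labelled and 3 Vector-labelled libraries of cells described as HCT-116. The submitters' processing notes name, without role or order, fastp 0.20.0, HISAT2 2.1.0, Cufflinks, featureCounts 1.6.1, DESeq2 and build GRCh38; strand settings are not given in the sources used here. The authors deposited a table of gene signal values, read counts divided by a size factor for each library and not by gene length. Whole reads were recovered by dividing by the value of 1 read (0.825 to 1.10), and at least 99.98% of values above 0 came out whole within 0.01. The table held 60590 rows, where 44 identifiers had 2 rows, which were summed. No 2 libraries of a group agreed within sampling noise.

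Groups were compared with limma 3.58.1 in R 4.3.3 (trend, log2(value + 1), genes with at least 1 in at least 3 libraries, Benjamini-Hochberg over 26536 genes). Genes were named by membership of the list or, outside it, by an adjusted p under 0.05 or a defined role in the pathway. Alternatives were edgeR 4.0.16 and DESeq2 1.42.0 on recovered reads, quantile normalization, a pseudocount of 0.1, other filters, P number and replicate terms, and each library left out. The scripts were tested on simulated data. The members, gene lists and tests were chosen with earlier results of these data known, the HEK293 list on these samples. Gene positions are from GENCODE 29, which holds all 41 members, and promoters from RefSeq. With 3 libraries a group precision is low, and the limit of 3 reads covers counting error only. One gene of the pathway list is counted in its list and not reported here.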

Additional observations from a re-analysis of the deposited data

How the results depend on the processing

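Of the 10 called members, IFI16, IFIT1, IFIT3, HERC5 and IFI44 were called under all 15 alternatives. The number of members called was 10 and became 21 with the P number as a block, 17 of them lower; 14 were lower by DESeq2. Leaving out a library gave 5 to 9 calls, 5 to 9 of them lower, with the fewest without Vector replicate 1, and a median log2 fold change of the members from -0.95 (without GOLPH3 replicate 3) to -0.40. The count over all genes moved too, here with its share of the genes tested in each fit. It went from 1346 (5.07%) to 405 (2.13%) with at least 1 normalized read in every library and 2047 (8.93%) by DESeq2. With the P number it was 2399 (9.04%) as a covariate and 6082 (22.9%) as a block. Without a library it ran from 459 (1.85%) to 1528 (6.07%). These shares are the background for the member counts above and the list counts below. Pathway genes called were 2, and 5 by DESeq2, 8 and 17 with the P number as covariate and as block, and 0 to 3 without a library. Other interferon-responsive genes called were 4, and 2 with at least 1 normalized read in every library, 7 by DESeq2, 9 and 17 with the P number as covariate and as block, and 0 to 3 without a library. The cause was not tested; smaller fits have fewer samples or genes, and the P block leaves 1 residual degree of freedom. Whether replicate numbers pair the libraries is not given in the sources used here. Deviations of same-numbered libraries correlated at -0.23, -0.15 and 0.26, and with 3 libraries a group such values cannot decide it. With the replicate block 8 members were called, 1081 of all genes (4.07%) and 2 other interferon-responsive genes. In that fit IFIT2, RSAD2 and CMPK2 were lost and SAMD9 was gained. Signs turned only in genes that were not called. Quantile normalization gave log2 fold changes of 0.038 for MX1 and 0.13 for IFI27, DESeq2 0.11 for IFI6 and 0.86 for IFI27, and edgeR 0.10 for IFI6. The P number as covariate gave 0.048 for MX1, 0.14 for IFI6 and -0.085 for PARP14, and as block 0.013 for DTX3L, 0.0060 for EPSTI1, -0.14 for TRIM22, 0.13 for IFI6 and 0.15 for OAS3. Without a library the ranges were ISG15 -0.98 to 0.26, MX1 -0.56 to 0.24, IFI6 -0.68 to 0.21, PARP14 -0.29 to 0.44, OAS3 -0.17 to 0.054, IFI27 -0.97 to 1.20 and ISG20 -0.52 to 0.67. Over the 41 members and all alternatives, 525 fold changes kept direction and side of the threshold, 22 gained the call, 28 lost it and 30 turned sign.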
